A study of Mus musculus with 26 samples.

Results

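The cytosolic ribosomal protein genes were taken by name: every protein-coding gene of the GENCODE mouse annotation whose symbol begins with Rpl or Rps and a digit, or with Rplp and 0, 1 or 2, together with Rpsa, leaving out the Rps6 kinase genes and symbols that mark pseudogenes. The rule gave 86 genes of 35944, and 84 of them passed the filter on low counts used for testing. The rule used names only and no measured value. The other 2, Rpl3l and Rpl10l, had at most 8 and 7 estimated counts in any library. The first encodes a form of RPL3 known from muscle and the second a form of RPL10 known from testis.

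TCRTg101 are CD8+ T cells of a single specificity, set by a transgenic receptor against C1498, a leukemia line that grows in C57BL/6 mice. In the paper, Tg101 mice were crossed onto a Rag2-deficient background, and their T cells were transferred into recipient mice. Its sorting time points count from this transfer. The labels do not say which control cells had been transferred. TCRTg101 were sorted by flow cytometry and gave 15 RNA-seq libraries from 26 runs. All mice were labelled as C57BL/6, 6 weeks old and wild type, and every T cell carried the same transgenic receptor, so each group describes 1 T cell clone and not a mixed response. Low-input libraries came from 3 controls in spleen (naive Tg101 at day 0 in controls 1 and 2, and Tg101 of untreated mice at day 18 in control 3) and from 1 spleen library of undivided cells at day 18. The undivided cells were taken from leukemia-bearing mice, were labelled as spleen, although undivided cells of the study's functional tests were sorted from liver, and had kept their CellTrace Violet dye, which is diluted at each division (CTVhi). Leukemia-bearing mice also gave spleen libraries at day 7 (2 early) and day 14 (1 mid), and liver libraries at day 7 (2 early), at days 13, 13 and 14 (3 mid) and at days 18 and 16 (late 1 and late 2). The 15th library was made from naive day 0 cells with oligo-dT and is set beside control 1, which bears the same number in its title. Titles fell into a TG series (control 1, mid 1, late 1 and the oligo-dT library) and an XC series with the other 11. Liver libraries came only from leukemia-bearing mice, so tissue and leukemia cannot be told apart in comparisons of liver libraries with the controls. The spleen libraries share their tissue with the controls. The labels do not say whether libraries of a group came from separate mice, and p-values measure the spread between libraries only.

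The ribosome is built from ribosomal RNA and about as many proteins as there are genes here, with a small (40S) subunit that reads the messenger RNA and a large (60S) subunit that joins amino acids. Messenger RNAs of these proteins are among the most abundant of a cell. Most begin with a run of pyrimidines called a 5′ terminal oligopyrimidine (TOP) motif, through which the kinase mTOR controls their translation. Naive T cells are known to make many more ribosomes once they are activated and divide. RNA levels, which were measured here, do not show how much protein was made.

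The libraries held between 22691255 and 70719703 estimated counts. The CD8 T cell markers summed to between 3950 and 7178 CPM (a count scaled to a common library total) in the low-input libraries, with none of the 7 at 0, and Cd4 reached at most 5.49 CPM. The day 0 controls stood apart in erythroid markers. These 6 genes summed to 5375 CPM in control 1 and 21040 CPM in control 2, against 149.7 CPM in control 3 and 1.28 to 175.1 CPM in the other low-input libraries. Hepatocyte markers, of which there were 7, summed to 78.6 and 241.9 CPM in the late and 2.53 to 163.8 CPM in the mid libraries, against 1.09 to 327.7 CPM in the controls. Almost all of the sum in control 1 was Trf, with 327.6 CPM. In controls 1, 2 and 3, 3, 5 and 3 of these 7 genes were at 0, and albumin (Alb) was at 0.0154, 0.0 and 0.0356 CPM. Albumin lay between 0.864 and 95.2 CPM in the mid and late libraries. Myeloid markers (7 genes) summed to 528.9, 112.6 and 11.9 CPM in the controls and to 12.3 to 36.9 CPM in the mid and late libraries. B cell markers (6 genes) summed to 615.4 to 728.0 CPM in the controls and to 452.3 to 589.0 CPM in the mid and late libraries. Most of this was Ighm, with 588.4 to 693.9 CPM in the controls. The part of these other cells in the results that follow was not tested. In bulk samples, fewer cells of a type and less RNA per cell cannot be told apart.

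Ribosomal protein genes held between 3.67% and 6.78% of all gene counts in the 14 low-input libraries (median 4.34%). As a share of counts, the libraries split by series more clearly than by group. The TG series had 6.00% in control 1, 6.19% in mid 1 and 6.78% in late 1. The XC series lay between 3.67% and 4.94% in all 11 libraries, with 3.75% and 4.58% in controls 2 and 3. No XC library reached the lowest TG library on this scale. As a share of the deposited TPM, which correct for length, the split was not complete. The TG libraries then had 8.34%, 8.39% and 8.41%, and the XC libraries 6.02% to 8.54%. Of the XC libraries, 2 (undivided cells with 8.54% and early spleen 2 with 8.45%) lay above all 3 TG libraries. The other XC libraries, up to 7.87% in control 3, lay below all 3. By group the share was 4.78% ± 1.14 in controls (SD, n = 3), 4.71% ± 1.32 at the mid time point (n = 3) and 5.56% ± 1.74 at the late time point (n = 2) in liver. Within each series the late library exceeded its controls only in part. Late 1 was above control 1, whereas late 2, at 4.33%, lay between controls 2 and 3. The undivided library, at 4.94%, was the highest of the XC series. The 2 sequencing runs of a library differed by at most 0.616 percentage points. Changes between groups were estimated in a model with series as a term.

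**Figure D1:**
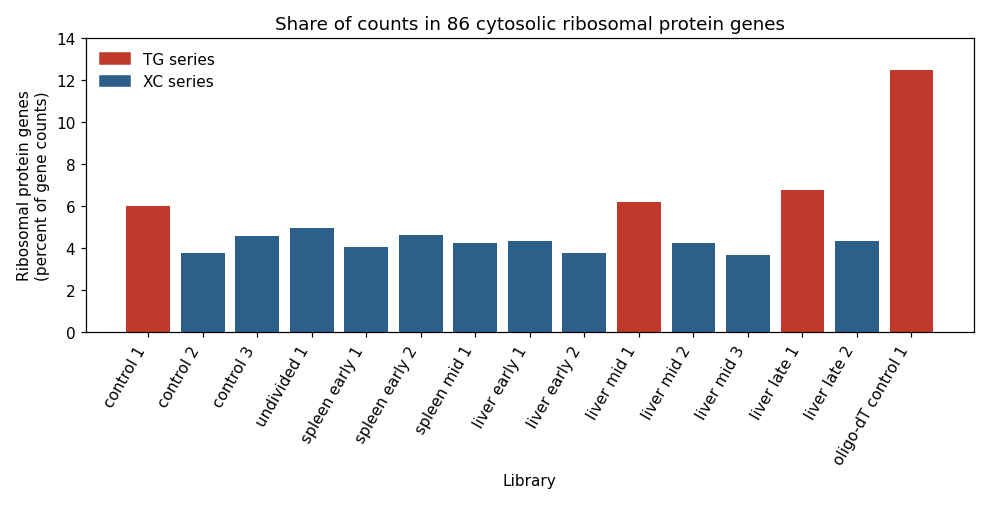
Percent of gene counts held by the 86 ribosomal protein genes in each of the 15 libraries (bars, coloured by series). On this scale the 3 low-input TG libraries lie between 6.00% and 6.78%, the 11 XC libraries between 3.67% and 4.94%, and the oligo-dT library at 12.5%.

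Per kilobase of transcript, the levels of the 84 tested genes spanned more than 3 orders of magnitude. Near the upper end were Rpl41, Rpl32 and Rps19, with means of 2810, 2680 and 2640 CPM per kb over the 14 low-input libraries, and Rps27 with 2350. All 4 encode standard subunit proteins. At the other end stood Rpl39l at 1.38, Rpl5 at 18.2 and Rps19bp1 at 39.7 CPM per kb. Rpl39l encodes a form of RPL39 known from male germ cells. Rps19bp1 meets the naming rule but encodes a protein that binds RPS19, not a subunit protein. RPL5 and RPL11 carry the 5S ribosomal RNA and bind the p53 regulator MDM2, and the low level of Rpl5 depended on its copies in the genome. Of the 31-base words in the Rpl5 transcripts, 48.8% occurred in other genes. Copies were genes with at least 50% of their own 31-base words in a member. With its 5 copies added, the level of Rpl5 in control 1 rose from 19.5 to 808.2 CPM of all gene counts. Such copies, other members included, were found for 71 of the 86 members, and 8 members shared over 50% of their words.

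In late liver libraries, ribosomal protein genes tended to be higher than in controls. Of 84 genes, 22 (26.2%) were called higher and 0 lower by edgeR at an adjusted p under 0.05. Among all 15465 genes tested, 19.9% were called higher and 14.3% lower. The share called higher was thus near the background, and the members differed from it in having no lower call. At an unadjusted p under 0.05, 36 were higher and 1 lower, with 25.6% and 21.6% of all genes. DESeq2 called 31 members higher and 0 lower (36.9% higher), with 22.4% and 18.2% of all genes. The log2 fold change was positive for 78 of 84 genes, with a median of 0.45 (quartiles 0.32 and 0.70), where the median of all genes was -0.04. Without scaling factors between libraries both medians were lower, at 0.14 for the members and -0.35 for all genes, and 8 members were called higher and 1 lower. The distance between the medians was 0.49 with either scaling.

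The number of calls depended on single libraries, for the members as for all genes. Leaving out control 1, late 1 or late 2 left 0 members called by edgeR (13, 13 and 27 at an unadjusted p under 0.05), and leaving out control 2 left 8 (9.52%). Of all genes tested, 6.28%, 3.74% and 0.0% were still called higher without control 1, late 1 and late 2, and 14.4% without control 2. The members' median was 0.30, 0.31, 0.62 and 0.45 in these 4 fits. With both day 0 controls left out, an alternative added after the data were seen, 0 members were called (0 at an unadjusted p under 0.05), as were 0.0% of all genes, and the median was 0.19 against 0.02 for all genes. Within the TG series the members' median difference between late 1 and control 1 was 0.74, and within the XC series late 2 exceeded the mean of its controls by 0.26. The difference was positive in both series for 69 of 84 genes, which is the direction of 40.4% of all genes. In the late libraries 20 members lay above every control and 0 below, while this held for 27.9% and 28.1% of all genes.

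Laminin receptor gene Rpsa, whose product is also a 40S protein, had 2417, 1055 and 1249 CPM in controls 1, 2 and 3. In late libraries 1 and 2 it had 4719 and 1748 CPM. Each late library was above the controls of its series, although late 2 was below control 1. The log2 fold change of Rpsa was 0.74 ± 0.19 (SE, adjusted p = 0.0172, edgeR). The stalk proteins P0, P1 and P2 form the arm of the 60S subunit that recruits elongation factors. Rplp0, which anchors it, rose from 2315, 1434 and 1668 CPM in the controls to 4930 and 2152 CPM, by 0.73 ± 0.22 (adjusted p = 0.0286). Its partners were not called. Rplp1 had 1073, 535.2 and 614.8 CPM in controls and 1467 and 567.7 CPM in late libraries, a change of 0.15 ± 0.22 (adjusted p = 0.606), and Rplp2 changed by 0.38 ± 0.23 (adjusted p = 0.216).

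Leaving aside the stalk, the paralog-type genes and Rps19bp1, 12 of 43 genes of the 60S subunit and 5 of 31 of the 40S subunit were called higher (27.9% and 16.1%, with 19.9% of all genes). Among them were Rpl28, Rpl29 and Rpl27 in the large and Rps26, Rps2 and Rpsa in the small subunit. Rpl28 and Rpl29 had the largest rises of standard subunit genes, in either order depending on whether copies were added. Rpl28 had 111.2, 75.3 and 78.0 CPM in controls and 260.9 and 137.7 CPM in late libraries. Its late values lay above every control, as did those of 27.9% of all genes. The gene rose by 0.99 ± 0.23 (adjusted p = 0.0122, edgeR). Rpl5 was called (0.69 ± 0.24, adjusted p = 0.0448), but not with its copies added (0.58 ± 0.25, adjusted p = 0.091). Rpl10, whose product helps form the site where transfer RNAs enter, rose by 0.75 ± 0.24 (adjusted p = 0.0366) and by 0.79 ± 0.24 with its copies (adjusted p = 0.0287).

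Other genes known from ribosome biology were not called. Rps6, the substrate of S6 kinase, changed by 0.47 ± 0.22 (adjusted p = 0.117), and Rpl38, known for a part in the translation of Hox messenger RNAs, by 0.85 ± 0.33 (adjusted p = 0.0694). Rpl11 changed by 0.52 ± 0.19 (adjusted p = 0.0604) and Rpl13a by 0.27 ± 0.21 (adjusted p = 0.322). Rps3, which also serves in DNA repair, changed by 0.10 ± 0.21 (adjusted p = 0.713). At the low end, Rps19, the gene most often mutated in Diamond-Blackfan anemia, changed by -0.08 ± 0.21 (adjusted p = 0.785) and Rpl12 by -0.21 ± 0.21 (adjusted p = 0.457). With its copies added the sign of Rpl12 turned (0.04 ± 0.20, adjusted p = 0.876).

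**Figure D2:**
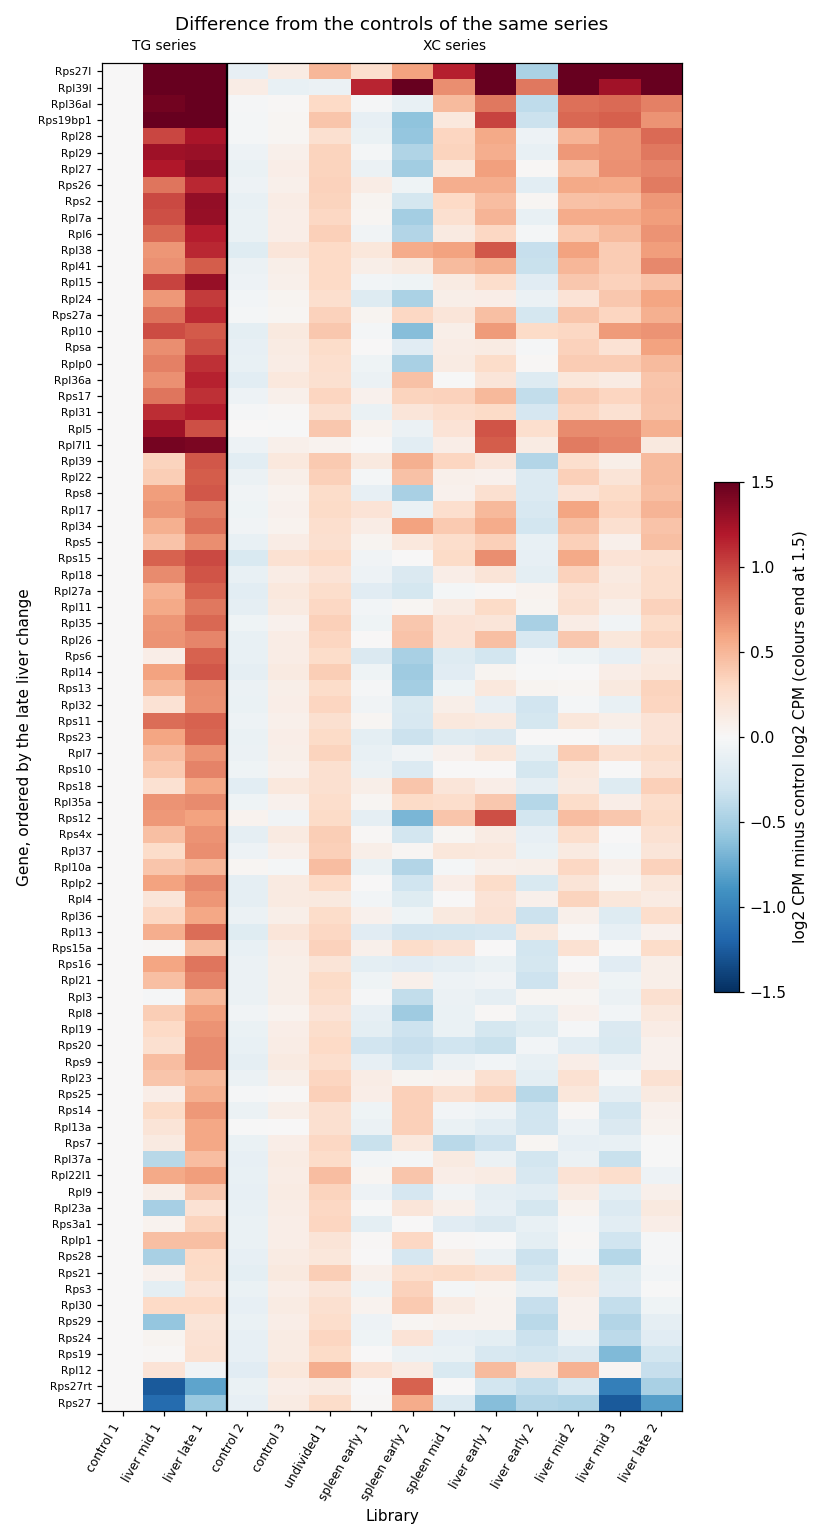
Difference in log2 CPM of 83 of the 84 tested genes (rows, ordered by the late liver change) from the mean of the controls of the same series (colour, red higher and blue lower, ending at 1.5). Columns are the 14 low-input libraries, and the TG libraries are left of the black line. Late 1 and mid 1 are redder (median 0.74 and 0.51) than late 2, mid 2 and mid 3 (0.26, 0.21 and 0.08), and the bottom rows, Rps27rt and Rps27, are blue in the mid and late liver libraries.

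In mid liver libraries, 14 of 84 genes were called higher and 2 lower, against 17.5% and 11.8% of all genes. As shares these were 16.7% and 2.38% of the members, so the share called higher did not exceed the background. The members' median log2 fold change was 0.25 and that of all genes -0.07, and 68 genes had a positive value. The median difference from the controls of the same series was 0.51 in the TG and 0.14 in the XC series. Leaving out control 1, control 2, mid 1 or mid 3 left 0 members called by edgeR (11, 18, 12 and 19 at an unadjusted p under 0.05). Almost no gene could be called in these fits, with 5, 0, 3 and 31 of all genes called higher, and the members' median was 0.11, 0.23, 0.22 and 0.32. Leaving out control 3 left 7 members called (all higher) and leaving out mid 2 left 9 (7 higher), with 12.9% and 14.3% of all genes called higher. With both day 0 controls left out, 0 members were called (1 at an unadjusted p under 0.05) and the median was -0.02, as was that of all genes.

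The 2 genes called lower were Rps27 and Rps27rt, and the gene with the largest rise was their relative Rps27l. Rps27 encodes a zinc-finger protein of the 40S subunit. Rps27rt is an intronless copy of it, and 92.4% of the 31-base words of its transcript also occur in other genes. Rps27l encodes an RPS27-like protein and is known as a target of p53. Of the 31-base words of Rps27 and Rps27l, 27.6% and 16.1% occur in other genes. The sequence around each annotated start was compared separately (RefSeq, GRCm38.p6). It covers 30 bases before the start and 20 from it, 5′ to 3′ on the gene's strand. This window does not show how far reads of these genes can be told apart. Most of it lies before the start, and the rest is shorter than a 31-base word. Rps27 and Rps27rt share a stretch of 19 bases there and differ upstream of it, while Rps27 and Rps27l share no stretch of over 5 bases. Rps27 lies on the minus strand at chr3:90213629-90213678, Rps27rt on the minus strand at chr9:114982720-114982769 and Rps27l on the plus strand at chr9:66946056-66946105. Rpl7a (chr2:26910777-26910826, plus strand), Rpl28 (chr7:4792935-4792984, plus strand) and Rps6 (chr4:86857348-86857397, minus strand) are shown with them as subunit genes with and without a late liver call. Capitals mark an unbroken run of at least 8 bases C or T that reaches within 5 bases of the annotated start.
Rps27: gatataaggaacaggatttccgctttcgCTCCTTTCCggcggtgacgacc
Rps27rt: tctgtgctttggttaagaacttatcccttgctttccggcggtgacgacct
Rps27l: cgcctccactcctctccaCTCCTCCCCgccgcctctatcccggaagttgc
Rpl7a: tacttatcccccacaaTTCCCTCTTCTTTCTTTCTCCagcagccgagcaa
Rpl28: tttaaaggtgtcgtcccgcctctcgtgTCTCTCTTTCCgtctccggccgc
Rps6: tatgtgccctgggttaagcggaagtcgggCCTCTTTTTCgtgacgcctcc

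Such a run was found at 24 of the 66 members for which a promoter was at hand (36.4%) and at 11.4% of all 27025 genes with one. The search looked at the gene's strand only, and annotated starts can lie some bases away from the start that cells use. The run is what the TOP motif is made of, but finding it does not show a TOP messenger RNA. Members with and without the run had almost the same median change in late libraries, 0.45 (24 tested genes) and 0.47 (40 tested genes). Rps27 and Rps27l, which have runs of 9 bases each, had changes of opposite sign.

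Rps27 had 1112, 706.9 and 835.0 CPM in the controls and 498.8, 557.6 and 321.9 CPM in the mid libraries. All 3 mid libraries lay below all 3 controls, which held for 1 of 84 members and for 21.2% of all genes. Rps27 fell by 0.92 ± 0.25 on the log2 scale (adjusted p = 0.0229, edgeR). In late libraries it had 755.3 and 431.6 CPM, and the change of -0.68 ± 0.28 did not pass (adjusted p = 0.0848). Rps27rt had 320.4, 78.9 and 91.4 CPM in controls and 133.9, 72.1 and 41.7 CPM in mid libraries, and fell by 0.81 ± 0.27 on the log2 scale (adjusted p = 0.0483). At mid, Rps27 passed in 11 and Rps27rt in 9 of 19 alternatives, which include fits with 1 library left out. Since reads of these near-identical genes are divided between them by estimation, their sum is the safer value. Rps27 and Rps27rt together had 1432, 785.9 and 926.3 CPM in controls, 632.6, 629.7 and 363.6 CPM in mid and 940.9 and 492.4 CPM in late libraries. The summed mid values lay below every control, as did the values of 21.2% of all genes, and the late sums overlapped the controls.

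Rps27l went the other way in every mid and late library. It had 46.0, 26.5 and 31.5 CPM in controls, 315.9, 87.3 and 106.6 CPM in mid and 327.3 and 110.9 CPM in late libraries. The groups did not overlap, and the log2 fold change was 2.07 ± 0.46 at mid (adjusted p = 0.0162) and 2.25 ± 0.51 at late (adjusted p = 0.0122). Within the series the late difference was 2.83 (TG) and 1.94 (XC). Of the TPM (transcript abundance scaled for length and depth) of Rps27 and Rps27l together, Rps27l made up 2.58% ± 0.23 in controls (SD, n = 3), 19.5% ± 10.8 in mid (n = 3) and 19.1% ± 6.29 in late libraries (n = 2). Early libraries were divided, with 10.5% in early 1 and 2.41% in early 2. The spleen had 2.52% and 2.86% at the early and 6.03% at the mid time point, and the undivided cells had 2.82%.

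The other paralog-type genes did not share 1 pattern. Rpl36al encodes a protein almost identical to that of Rpl36a. It had 190.2, 138.2 and 142.5 CPM in controls and 517.7, 248.9 and 252.5 CPM in mid libraries, and rose by 1.03 ± 0.28 at mid (adjusted p = 0.0229) and by 1.06 ± 0.31 at late (adjusted p = 0.0267). Its neighbour in sequence, Rpl36a, was called at late only (0.71 ± 0.24, adjusted p = 0.0458), which did not hold with its copies added (0.54 ± 0.25, adjusted p = 0.112), with 0.31 ± 0.22 at mid (adjusted p = 0.287). The difference between the time points was not called for any member. Of the TPM of this pair, Rpl36al made up 56.6% ± 2.46 in controls and 68.6% ± 0.85 in mid libraries (n = 3 each), 62.9% ± 0.14 in late libraries (n = 2) and 65.0% in the mid spleen library.

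Rpl39l was near the floor of detection. It had 0.524, 0.234 and 0.195 CPM in controls, 1.61, 1.12 and 0.585 CPM in mid and 1.87 and 1.08 CPM in late libraries. It rose by 1.83 ± 0.58 at mid (adjusted p = 0.0384) and by 2.10 ± 0.62 at late (adjusted p = 0.0277), yet it reached under 1% of the TPM of Rpl39 and Rpl39l in every low-input library. Rpl39l passed in 6 of 18 alternatives at mid and in 6 of 17 at late. Early spleen 2 had 1.42 CPM, which was within the range of the mid and late libraries. Rpl39 itself missed the threshold at late (0.67 ± 0.24, adjusted p = 0.0507). Rpl7l1, whose product belongs to precursor ribosomes and not to the finished 60S subunit, had 95.4, 101.3 and 113.5 CPM in controls and 258.7, 184.1 and 177.9 CPM in mid libraries. It rose by 0.96 ± 0.26 at mid (adjusted p = 0.0247), while at late it had 253.3 and 119.0 CPM and 0.69 ± 0.30 (adjusted p = 0.0984). Rpl22l1, the partner of Rpl22 known from T cell development, had 0.33 ± 0.19 at mid (adjusted p = 0.205) and 0.23 ± 0.22 at late (adjusted p = 0.43), and Rpl22 rose at late by 0.67 ± 0.21 (adjusted p = 0.0317). Rps19bp1 rose by 1.09 ± 0.32 at mid (adjusted p = 0.0304) and 1.03 ± 0.36 at late (adjusted p = 0.0482). It passed in 10 of 19 alternatives at mid and in 7 of 18 at late.

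**Figure D3:**
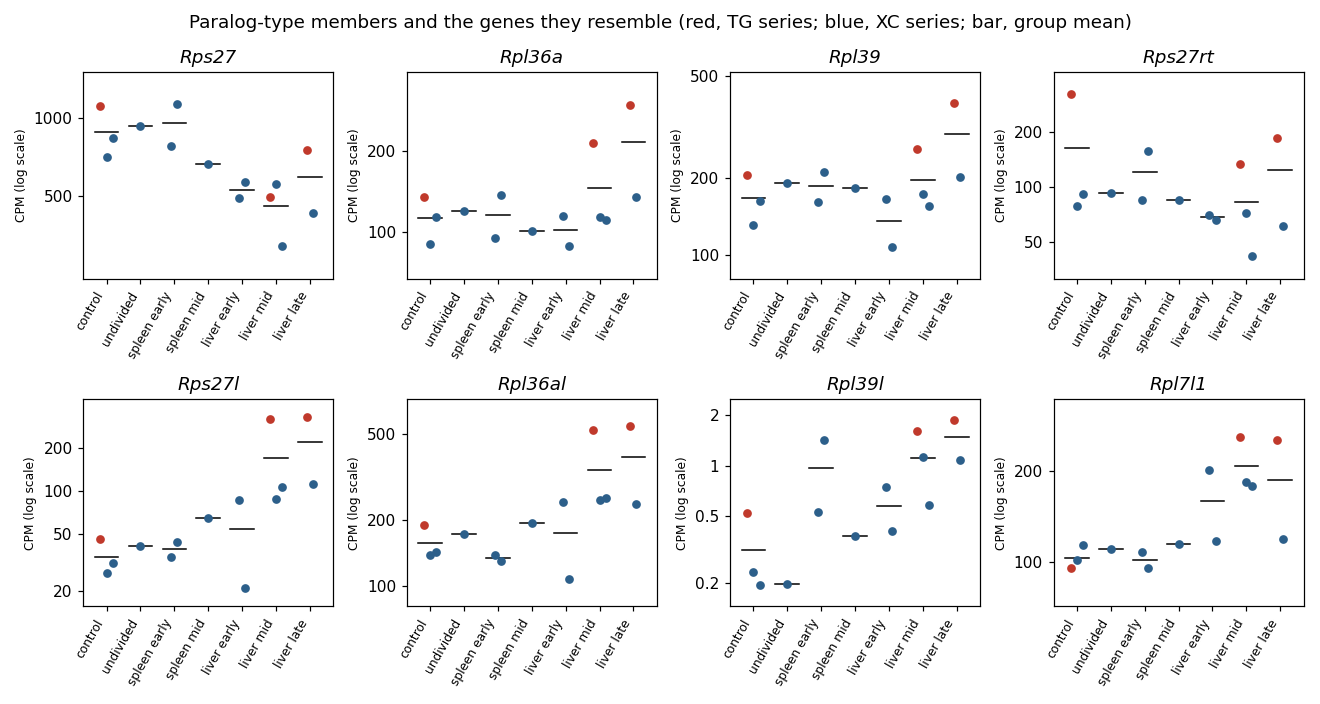
CPM (log scale) of paralog-type genes and the genes they resemble in the 14 low-input libraries, by group (points, red for the TG and blue for the XC series, with bars at group means). Rps27l lies above all controls in every mid and late liver library, whereas Rps27 lies below all controls in the 3 mid libraries.

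Early liver libraries showed no call. By edgeR 0 of 84 members passed, as did 0.0% of all genes, and DESeq2 called 0 members. At an unadjusted p under 0.05 (edgeR), 3 of 84 members were higher, against 7.58% of all genes. The median was 0.10, and the 2 libraries stood on either side of the controls of their series. Early 1 was higher for 60 of 84 genes (median difference 0.16) and early 2 for 17 (median -0.17). Leaving out early 2 gave 7 members called higher (8.33%), no more than the 8.89% of all genes called higher there. Between early liver and early spleen libraries, edgeR called 0 members and 0.0% of all genes, and DESeq2 called 0 members. Since no gene was called, this does not show that the groups were alike. At an unadjusted p under 0.05 (edgeR), 5 of 84 members were higher and 2 lower in liver, against 3.43% and 5.59% of all genes. The 2 that were lower at the unadjusted threshold were again Rps27 (-0.84 ± 0.30) and Rps27rt (-0.83 ± 0.33), both with an adjusted p of 0.544.

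The spleen of leukemia-bearing mice also gave no member call. Early spleen had a median of 0.06 and mid spleen of 0.18 against the controls, with 0.0% and 0.00647% of all genes called. At an unadjusted p under 0.05 (edgeR), 1 of 84 members was higher in each, against 5.5% and 4.18% of all genes. DESeq2 called 0 members in both. Mid liver against mid spleen gave 0 members (0.00647% of all genes, 0 at an unadjusted p under 0.05, 0 by DESeq2) with a median of 0.12. Late against mid liver gave 0 members (0.0% of all genes, 0 by DESeq2). In this comparison 3 of 84 members were higher at an unadjusted p under 0.05 (edgeR), against 2.55% of all genes. There 77 of 84 genes had positive values, with a median of 0.24 against 0.02 for all genes. With 1 mid spleen library, its comparison has no spread of its own and borrows that of the other groups.

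Undivided cells at day 18 had the tightest pattern of the 9 comparisons. Of 84 genes, 83 had a positive log2 fold change against controls, with quartiles of 0.32 and 0.42 around a median of 0.37, where the median of all genes was -0.02. No member passed by edgeR (0 of 84, 0.0% of all genes, 0 at an unadjusted p under 0.05) or DESeq2 (0). This group held 1 library. A shift of nearly all members together was also present between controls, since control 3 was above control 2 for 80 of 84 genes, at 0.10 and -0.10 from their mean. The undivided library lay 0.29 above that mean. Without the series term the members' median was 0.09 in undivided cells and turned negative in early liver (-0.16), early spleen (-0.26) and mid spleen (-0.12), groups with XC libraries only, while it was 0.63 in late and 0.29 in mid liver.

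**Figure D4:**
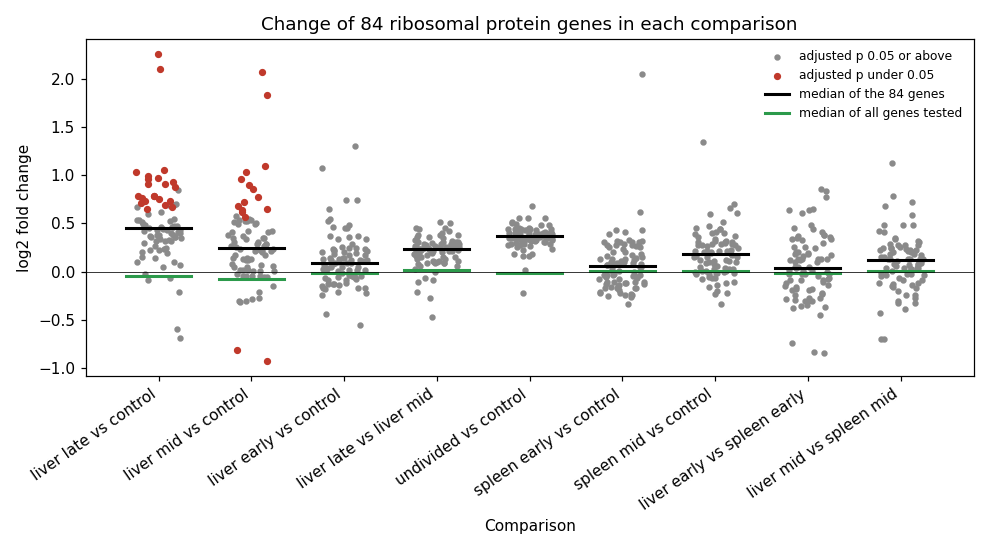
Log2 fold change of the 84 tested genes (points, red where the adjusted p is under 0.05) in the 9 comparisons, with the median of these genes (black) and of all 15465 genes tested (green). Calls appear in late liver (22 higher) and mid liver (14 higher, 2 lower), and the undivided cells show a narrow band around 0.37.

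Genes that work with the ribosomal proteins were described from fixed lists in the same comparisons. Among genes of the ribosome that the naming rule leaves out, Rack1, a scaffold protein of the 40S subunit, was called higher at mid (0.74 ± 0.24, adjusted p = 0.0432) and late (0.92 ± 0.27, adjusted p = 0.0269), while Fau, which encodes RPS30 as a fusion, was not. Translation factors and other genes with a known TOP motif had 10 of 21 called higher at mid and 12 of 21 at late, and 1 lower at each, with medians of 0.56 and 0.71. As shares, 47.6% and 57.1% were higher and 4.76% lower, against 17.5% and 19.9% higher and 11.8% and 14.3% lower of all genes. Elongation factor genes Eef1g and Eef1d and Eif3l of the initiation factor eIF3 rose at both times, and the helicase gene Eif4a2 fell by 1.08 ± 0.25 at mid (adjusted p = 0.0154) and by 1.45 ± 0.29 at late (adjusted p = 0.00728) on the log2 scale. The largest rise in this list was that of Vim, a cytoskeletal gene (1.87 ± 0.31 at late, adjusted p = 0.0047).

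Ribosome biogenesis genes, whose products process ribosomal RNA and assemble the subunits, had 23 of 30 called higher at mid (76.7%, against 17.5% of all genes) and 5 of 30 at late (16.7%, against 19.9%), and the rest were not called. Their median was 1.01 at mid and 0.64 at late, while the median of the ribosomal protein genes was 0.25 and 0.45. In early liver 0 of the 30 were called, but all 30 had positive values, with a median of 1.01. At an unadjusted p under 0.05 (edgeR), 22 were higher there, against 7.58% of all genes. In spleen the median was 0.17 at early and 0.48 at mid, with 21 and 29 positive values. Nucleolin (Ncl) rose by 1.54 ± 0.39 at mid (adjusted p = 0.0203) and had 1.05 ± 0.43 at late (adjusted p = 0.0808). Nhp2, a protein of the particles that modify ribosomal RNA, rose at mid (1.85 ± 0.44, adjusted p = 0.0182) and late (1.77 ± 0.49, adjusted p = 0.0245). The difference between late and mid was not called for either gene.

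The list of 14 regulators of ribosomal protein synthesis also holds Rps6, itself a member. Of these 14, 2 were called higher and 1 lower at mid, and 1 higher and 1 lower at late. These shares (14.3% and 7.14% higher, 7.14% lower) did not exceed those of all genes. Myc, a transcription factor that drives ribosome production, rose at mid (1.71 ± 0.51, adjusted p = 0.0352) and had 0.83 ± 0.56 at late (adjusted p = 0.267). Eif4ebp1, which restrains cap-dependent translation, rose by 2.32 ± 0.48 and 2.45 ± 0.52 (adjusted p = 0.0148 and 0.011). Tsc1, an inhibitor of mTOR, fell by 0.96 ± 0.26 at mid (adjusted p = 0.0234) and by 1.09 ± 0.29 at late (adjusted p = 0.0197) on the log2 scale. Mtor had 0.21 ± 0.17 and 0.10 ± 0.19 (adjusted p = 0.351 and 0.714), and Larp1, which binds the TOP motif, had 0.67 ± 0.23 and 0.46 ± 0.26 (adjusted p = 0.0512 and 0.181).

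The oligo-dT library differed from its low-input pair in these genes. In the oligo-dT library they held 12.5% of gene counts, against 6.00% in control 1. With 1 library of each kind there is no test, and the kind of library cannot be told apart from other differences between these 2 libraries. Of the 84 genes with at least 10 counts in both, 51 (60.7%) were more than 2-fold higher in the oligo-dT library and 1 more than 2-fold lower. Of all 13419 genes compared, 11.3% were more than 2-fold higher and 13.0% more than 2-fold lower. The median log2 ratio was 1.17 for the members, or 2.25-fold, and -0.13 for all genes. By contrast, 79 genes of mitochondrial ribosomal proteins, which have their own nuclear genes, had a median of -0.89.

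Members differed widely in this ratio, from -1.04 to 3.36. The highest was that of Rpl10, with 155.6 CPM in control 1 and 1595 CPM in the oligo-dT library, a 10.3-fold difference that fell to a log2 ratio of 1.11 with its copies added. Rps21 went from 198.9 to 1302 CPM and Rps24 from 634.9 to 3583 CPM, or 6.55 and 5.64-fold. The lowest were Rps27l, with 47.2 CPM in control 1 and 23.0 CPM in the oligo-dT library, Rps19bp1 with 19.2 and 10.5 CPM, and Rpl23a with 742.8 and 407.1 CPM. The ratio of Rpl23a turned with its 6 copies added, from a log2 ratio of -0.87 to 1.21, and the sign also changed for Rps13 and Rpl13 (3 genes in all). Those of Rps27l and Rps19bp1 did not move. The group comparisons above used the low-input libraries only.

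**Figure D5:**
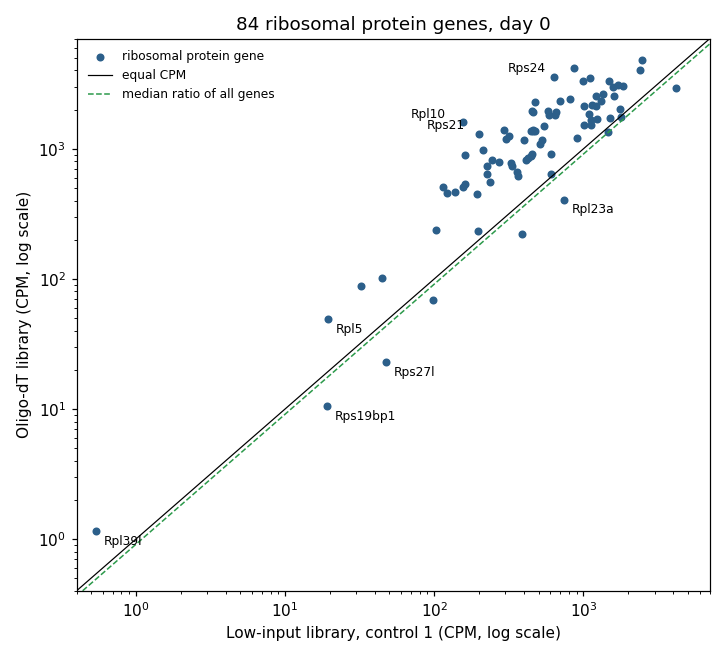
CPM of 84 ribosomal protein genes in the oligo-dT library against control 1 (both axes on a log scale), with the line of equal CPM and the median ratio of all genes (dashed). Most points lie above the line, 51 of them by more than 2-fold, and Rps27l and Rps19bp1 lie below it, as does Rpl23a as long as its copies are not added (with them its log2 ratio is 1.21).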

How the data were processed

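Low-input RNA-seq was sequenced in batches by the authors, who quantified transcripts with kallisto (version not given in the sources used here; builds mm10 and GRCm38 per the labels). The deposited values are estimated counts (expected counts) and TPM per transcript. Estimated counts were summed per gene (GENCODE vM21, GRCm38, 98.25% of transcripts matched) and over runs of a library, and rounded. The deposited TPM served for shares within pairs and an alternative. Kallisto divides reads among similar transcripts, and that error is not in the tests. Genes that reached 10 counts in 6 or more libraries were tested with edgeR 4.0.16 (R 4.3.3, robust quasi-likelihood, two-sided, TMM factors of 0.723 to 1.22) with group and title series as terms over 14 libraries, and p-values were adjusted by Benjamini-Hochberg over all 15465 genes. CPM of each library used TMM-scaled totals, except for the oligo-dT comparison, marker sums and copies, which used gene counts. Log2 CPM had a prior count of 2. With 1 to 3 libraries a group, the number of libraries limits the precision, and the totals make counting error small. The test was checked on simulated data.

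Alternatives were RLE or no scaling, TMM without the members, DESeq2 1.42.0, no series term, other filters, 11 libraries, day 0 controls, first runs, counts scaled from TPM, copies added (genes sharing at least 50% of their 31-base words with a member) and each library left out. Named genes were Rpsa and the stalk genes, paralog-type genes with their relatives, the extremes of the late, mid, level and oligo-dT orders, calls against the majority, and 8 genes known from ribosome biology; Rpl29, Rpl27, Rps26, Rps2 and the list genes named were chosen after their values were seen. The members and lists were chosen with earlier results of these data known. Results on 2 genes that the rule or lists name are not reported here.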

Additional observations from a re-analysis of the deposited data

How the results depend on the processing

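The numbers of members called at late were 22, and 18 to 31 under RLE factors, TMM without the members, DESeq2, other filters, 11 libraries, first runs, counts from TPM, copies added and day 0 controls only. Without scaling factors 9 were called and without the series term 3. At mid, where 16 were called, the range under these alternatives other than day 0 controls was 12 to 19, and the numbers were 8 without scaling factors, 1 without the series term and 7 with day 0 controls only. Leaving out 1 library in turn gave 0 to 20 calls at late, 0 to 9 at mid, 0 to 7 in early liver and 0 to 3 between early liver and early spleen, and with both day 0 controls left out 0 were called at late and at mid. Without a filter on low counts 1 member was called in early liver and 1 in mid spleen. The other comparisons had 0 calls in every alternative. Fewer libraries leave fewer degrees of freedom (6 with all 14), and the cause of these differences was not tested. The median share of counts was 7.78% as a share of TPM, and the median oligo-dT ratio was 1.32 against the first run of control 1 alone. No paired analysis was possible because replicate numbers were given in order of listing and pair no libraries.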
